A study of Mus musculus with 6 samples.

Results

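Of the 23183 genes in the tables, 9 encode CXCR2 ligands, their close relatives or their receptors: Cxcl1, Cxcl2, Cxcl3, Cxcl5, Cxcl15, Ppbp, Pf4, Cxcr1 and Cxcr2. They were taken by gene symbol, with earlier results of these data known, and all 9 had a value in every library. The chemokines of this family that carry the glutamate-leucine-arginine (ELR) motif bind CXCR2, a G protein-coupled receptor on neutrophils, and guide these cells out of the blood into inflamed airspaces. Cxcl1, Cxcl2, Cxcl3 and Cxcl5 encode such ligands made by epithelium, macrophages and endothelium. Cxcl15, also called lungkine, is a lung epithelial member of the family, Ppbp encodes the platelet precursor of a CXCR2 ligand, and Pf4 encodes platelet factor, a platelet granule relative that lacks the ELR motif. Cxcr1 encodes the related second receptor.

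RNA was sequenced from lungs of C57BL/6 mice that received either saline (3 libraries) or lipopolysaccharide (LPS, a bacterial cell wall product; 3 libraries) by intratracheal instillation. Dose, time after instillation, age and the number of animals behind a library are not stated in the labels. The titles and the design text call all mice wild type, but the genotype field reads LCN2-/- for LPS 1 and LPS 2 and LCN4-/- for LPS 3. Lcn2, the gene the series concerns, stood at 8.20, 11.28 and 10.11 in saline and at 13.60, 13.29 and 13.82 in the libraries labelled LPS, which goes against a loss of its transcript there. The labels do not say whether each library is a different animal, and the p-values therefore reflect the spread among these samples only, which could be technical.

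All levels are deposited values on the scale log2(expression value + 1), and a difference is the LPS mean minus the saline mean on that scale. A fold is 2 raised to that difference, which understates the change of low genes. The values scaled with transcript length, so levels of different genes could be set beside each other. Differences were tested with limma over 13116 genes, with Benjamini-Hochberg adjusted p-values and a threshold of 0.05. Of those genes, 50.1% passed. Sftpc, the surfactant gene that marks lung tissue, was at 13.46 to 14.00 in the 6 libraries. LPS 3 lacked values for 4484 genes, none of them a member. The saline tables each held 3869 zeros, those of the LPS libraries between 5117 and 6223, and the values before the log summed to 467483 to 552368 in saline against 854330 to 885427 in LPS. How the tables were made thus moved with treatment, and the effect of either cannot be told apart from that of the other. In whole lung, fewer cells of a type and less RNA per cell cannot be told apart either.

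A shared sequence stood in the promoters of 3 of the 8 members with a RefSeq promoter entry. The 250 bases before the RefSeq start (GRCm38.p6, 5′ to 3′, + strand of chromosome 5) are shown for Cxcl1, Cxcl2 and Cxcl3, which hold a shared binding motif for the transcription factor NF-kB, and for Cxcl15, a lung ligand gene of the same cluster without it. The windows are chr5:90890995-90891244 for Cxcl1, chr5:90903649-90903898 for Cxcl2, chr5:90785851-90786100 for Cxcl3 and chr5:90794284-90794533 for Cxcl15. Capitals mark the letters GGGAATTTCC together with the overlapping NF-kB match GGAATTTCCC of the opposite strand.
Cxcl1: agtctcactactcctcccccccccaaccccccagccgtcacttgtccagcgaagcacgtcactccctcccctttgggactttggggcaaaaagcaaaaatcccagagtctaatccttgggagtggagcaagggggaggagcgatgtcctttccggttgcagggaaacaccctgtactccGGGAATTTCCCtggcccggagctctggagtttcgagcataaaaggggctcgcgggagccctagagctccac
Cxcl2: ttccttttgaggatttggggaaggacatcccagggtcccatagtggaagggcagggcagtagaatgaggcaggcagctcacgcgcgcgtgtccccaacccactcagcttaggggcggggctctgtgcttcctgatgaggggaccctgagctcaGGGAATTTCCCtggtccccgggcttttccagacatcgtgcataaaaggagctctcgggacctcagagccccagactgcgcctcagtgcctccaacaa
Cxcl3: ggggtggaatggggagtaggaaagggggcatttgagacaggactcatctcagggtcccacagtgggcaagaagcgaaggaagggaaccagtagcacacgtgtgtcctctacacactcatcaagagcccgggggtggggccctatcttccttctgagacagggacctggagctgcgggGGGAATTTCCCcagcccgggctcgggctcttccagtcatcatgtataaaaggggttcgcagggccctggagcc
Cxcl15: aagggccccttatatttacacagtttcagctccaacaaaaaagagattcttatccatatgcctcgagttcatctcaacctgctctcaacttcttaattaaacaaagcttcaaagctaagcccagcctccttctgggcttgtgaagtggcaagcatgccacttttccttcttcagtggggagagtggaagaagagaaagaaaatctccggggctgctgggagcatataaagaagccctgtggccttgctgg

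The run GGGAATTTCC, searched on both strands and chosen after the promoters had been seen, began 71 bases before the RefSeq start in Cxcl1, 97 bases before it in Cxcl2 and 73 bases before it in Cxcl3. It occurred in 29 of 32851 RefSeq promoter windows of 300 bases (0.0883%). The wider NF-kB consensus, which overlaps it, occurred in 8.46% of windows and in none of the other 5 members with an entry, Cxcl15, Ppbp, Pf4, Cxcr1 and Cxcr2. A TATA box, TATAAA, began 30 bases before the start in Cxcl3, 27 in Cxcl15, and 30 and 8 in Ppbp, against a share of 13.6% over all windows. The variant ATAAAA began 34 bases before the start in Cxcl1 and 57 in Cxcl2, and also stood in the windows of Cxcl3, Ppbp, Pf4 and Cxcr1 (18.5% of all windows, both strands). For Cxcl5 no promoter was matched. The Cxcl2 window ends at 90903898, past the start of that gene in the GENCODE annotation, 90903871, so distances in Cxcl2 depend on the annotation. These letter matches describe the windows and do not show occupancy.

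The transcripts also differed in ATTTA, the pentamer of AU-rich elements that marks short-lived cytokine mRNAs. The 3′ UTR of Cxcl2 held 11 copies in 734 bases, or 15.0 per kb, and 99.6% of 20605 annotated genes had fewer per kb. Cxcl1 held 7 in 592 bases (11.8 per kb), Cxcl3 5 in 645 bases (7.75 per kb) and Cxcl5 5 in 1111 bases (4.50 per kb), against a median of 1.20 per kb over all genes. Cxcl15 had 1.26, Ppbp 1.52 and Cxcr2 1.10 per kb, close to that median. Pf4 reached 8.13 per kb from a single copy in 123 bases.

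Cxcl1, Cxcl2, Cxcl3 and Cxcl5 rose from low levels in saline to between rank 108 and rank 585 of 18699 genes in LPS, Pf4 and Cxcr2 rose less, and Cxcl15 fell from its place as the dominant ligand transcript. Ppbp did not pass the test, and Cxcr1 was too low to be tested. Of the 8 members tested, 6 were higher in LPS, where 25.7% of all tested genes were, and 1 was lower, where 24.3% were. At least 4-fold higher were 5 of the 8, against 2.28% of all tested genes. In 6 of 9 members all LPS values lay above all saline values, as in 32.7% of tested genes, and in 1 all lay below, as in 30.7%.

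**Figure D1:**
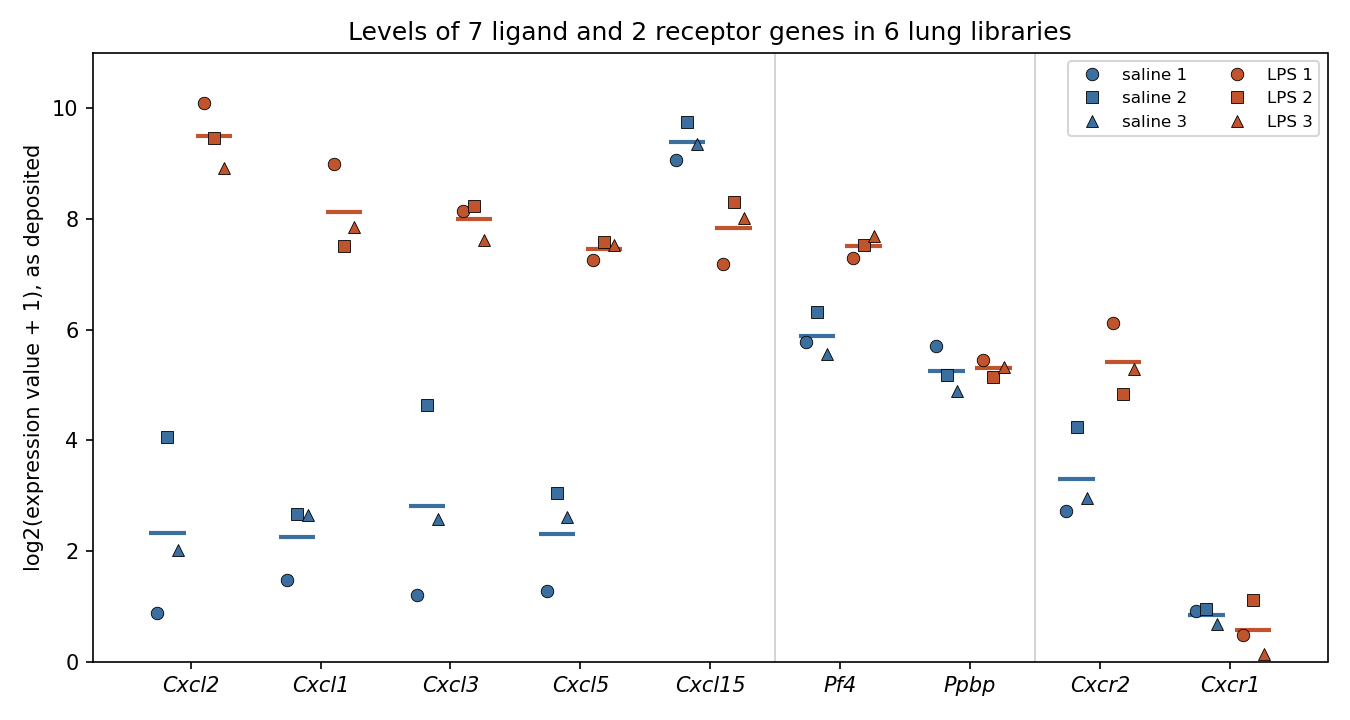
Level of each gene on the log2(value + 1) axis in 3 saline and 3 LPS libraries, 1 marker per library, with horizontal lines at the group means. Cxcl2 moved from a mean of 2.33 to 9.50 and Cxcl15 from 9.39 to 7.84, while the groups of Ppbp and Cxcr1 overlapped.

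Cxcl2, which encodes macrophage inflammatory protein 2, was at 0.89, 4.07 and 2.01 in saline and at 10.10, 9.46 and 8.93 in LPS. The groups were far apart, although saline 2 stood well above the other saline libraries. Its difference of 7.17 (SE 0.66, limma adjusted p = 0.000105), a 144-fold rise, was the largest of all 13116 tested genes. The rise came to 264-fold without saline 2 and to 87.8-fold without saline 1. Before the log, Cxcl2 was at 0.854, 15.8 and 3.04 in saline and at 1099.4, 704.0 and 487.1 in LPS. Its rank among the 18699 genes with a value in every library went from 10552, 3682 and 8622 to 108, 163 and 211.

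Cxcl1, the keratinocyte-derived chemokine, was at 1.47, 2.67 and 2.65 in saline and at 8.99, 7.52 and 7.85 in LPS. LPS 1 held the highest level, and the lowest LPS library lay far above every saline library. The difference was 5.86 (SE 0.41, limma adjusted p = 5.80e-05), 57.9-fold and 6th by size among the tested genes.

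Cxcl3, a close relative of Cxcl2, was at 1.21, 4.65 and 2.59 in saline and at 8.15, 8.23 and 7.62 in LPS. Saline 2 was again the highest saline library, and the LPS libraries lay close together above it. The difference was 5.18 (SE 0.68, limma adjusted p = 0.000448), or 36.3-fold. It was 68.6-fold without saline 2 and 20.8-fold without saline 1.

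Cxcl5, an epithelial ligand, was at 1.29, 3.04 and 2.62 in saline and at 7.27, 7.59 and 7.53 in LPS. Its LPS values had the smallest spread of the 4 strongly raised ligands (SD 0.17, n = 3), and the groups did not overlap. The difference was 5.14 (SE 0.37, limma adjusted p = 6.03e-05), or 35.3-fold.

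Cxcl15 was at 9.07, 9.76 and 9.36 in saline and at 7.19, 8.32 and 8.03 in LPS. Every LPS library lay below every saline library, and LPS 1, the library with the most Cxcl1 and Cxcl2, held the least Cxcl15. The difference was -1.55 (SE 0.31, limma adjusted p = 0.00313), which is 2.93-fold lower. Cxcl15 nevertheless remained an abundant transcript, moving from rank 99, 100 and 98 of 18699 in saline to 618, 304 and 359 in LPS. Among markers of alveolar type 2 cells, the surfactant-making epithelium, 4 of 10 fell, such as Sftpb (-1.60) and Abca3 (-1.28), and Sftpd rose by 1.19. Under scaling of every library to the same sum (equal sums), 9 of the 10 fell and Sftpd no longer rose. That scaling called 8343 of all 13116 tested genes lower and 798 higher, the background for every equal-sums count below. On the deposited scale Sftpc, at -0.39, did not pass (limma adjusted p = 0.327). The summed level of these markers, most of it Sftpc, went from 18811 to 20182 in saline to 14684 to 15826 in LPS. Relative to the mean of 9 of these markers in the same library, Cxcl15 was higher by 1.15 in saline and by 0.16 in LPS, a change of -0.99 (exact permutation p = 0.1, the smallest that 3 against 3 allows). Of 8 airway secretory cell markers, 3 fell: Cyp2f2 (-1.32), Bpifa1 (-6.50) and Bpifb1 (-2.19). The LPS libraries were unlike each other here: Bpifa1 was at 0.85, 1.66 and 7.17 in LPS, against 10.03, 10.09 and 9.05 in saline. Without LPS 3, 6 of the 8 markers fell, and under equal sums 7. Their summed level went from 66429 to 103391 in saline to 150875 to 165908 in LPS, while their median difference was -1.76. Scgb1a1, which encodes the club cell secretory protein, made up 91.7% to 99.1% of that sum in the 6 libraries, and its difference of 1.08 did not pass (limma adjusted p = 0.102). Relative to the mean of these 8 markers, Cxcl15 stood at 0.11, 0.45 and 0.68 in saline and at 1.35, 1.79 and -0.80 in LPS. LPS 1 and LPS 2 thus lay above every saline library and LPS 3 below. The means were 0.41 in saline and 0.78 in LPS, a change of 0.36 with overlapping groups (exact permutation p = 0.8). That change was opposite in sign to the one against the alveolar type 2 markers. Any part of these cell types in the Cxcl15 difference was not tested.

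Pf4 was at 5.79, 6.33 and 5.56 in saline and at 7.29, 7.53 and 7.69 in LPS, without overlap. The difference was 1.61 (SE 0.22, limma adjusted p = 0.000543), or 3.06-fold. Ppbp, the neighbouring platelet gene, was at 5.70, 5.19 and 4.89 in saline and at 5.45, 5.14 and 5.33 in LPS. All 3 LPS values of Ppbp lay inside the saline range. Its difference was 0.05 (SE 0.21, limma adjusted p = 0.865). Within a library, Ppbp minus Pf4 was -0.08, -1.13 and -0.67 in saline and -1.84, -2.39 and -2.36 in LPS, a shift of -1.57 without overlap (SE 0.35, exact permutation p = 0.1).

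Of 15 tested platelet and megakaryocyte markers, 7 rose and 8 did not pass, with a median of 0.40 against 0.02 over all genes. Clec1b (1.47), an activating platelet receptor, Gp9 (1.42) and Gp1bb (1.20), subunits of the von Willebrand factor receptor, and Itgb3 (1.20), a fibrinogen receptor subunit, rose, whereas Itga2b, the partner of Itgb3, at 0.40, did not pass (limma adjusted p = 0.110). Under equal sums 3 rose and 1 fell. The summed marker level was 145 to 186 in saline and 184 to 252 in LPS. Relative to the mean of 14 of these markers, Pf4 went from 3.34 to 4.33 and Ppbp from 2.71 to 2.13, without overlap between groups in either case (exact permutation p = 0.1 each). Monocyte and macrophage markers moved as well, 9 of 11 higher and 1 lower, among them Ms4a6d (3.30), Fcgr4 (2.69) and Ly6c2 (1.77), while Siglecf of resident alveolar macrophages fell by 1.63. Under equal sums 4 rose and 2 fell. Their summed level went from 339 to 499 in saline to 724 to 1072 in LPS, and Pf4 relative to their mean went from 1.54 to 2.07 with overlapping groups (exact permutation p = 0.2). Red cell genes went partly the same way: 4 of 7 were higher and 3 did not pass, with a median of 0.59. Hba-a2 (3.20) rose most and Hba-a1 by 1.26, while Hbb-bs (0.09), Alas2 (0.12) and Slc4a1 (0.08, no LPS 3 value) did not pass. Under equal sums 1 of the 7 was higher and 1 lower. Their summed level, most of it Hbb-b1 and Hba-a1, was 3281 to 5838 in saline and 7451 to 13132 in LPS. Their part in the Pf4 difference was not tested.

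Cxcr2, the receptor that binds the ELR ligands, was at 2.73, 4.24 and 2.95 in saline and at 6.12, 4.84 and 5.28 in LPS. The groups did not overlap, with saline 2 and LPS 2 the closest libraries across them. The difference was 2.10 (SE 0.41, limma adjusted p = 0.00300), or 4.30-fold. Cxcr1 was at 0.92, 0.95 and 0.68 in saline and at 0.48, 1.11 and 0.15 in LPS. Its groups overlapped and only LPS 2 exceeded 1 before the log (1.16), so it missed the filter on low values. Its difference of -0.27 gave a limma adjusted p of 0.450 in a fit without that filter.

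Neutrophil markers rose with Cxcr2: 14 of 16 tested were higher and 0 lower (13 and 1 under equal sums), with a median of 3.62. They included the granule and alarmin genes S100a8 (4.18) and Ngp (4.45), the decoy receptor Il1r2 (4.81) and Slfn4 (4.25, no LPS 3 value). Summed over 15 markers, the level was 718 to 2094 in saline and 10018 to 25715 in LPS, most of it S100a8 and S100a9. Saline 2, the saline library with the most Cxcl2, Cxcl3 and Cxcr2, also had the highest sum of these markers in its group, and LPS 1 had the highest in LPS. The 15 summed markers are those with a value in every library. They include Mpo and Elane, which missed the filter, and leave out risers such as Slfn4. Cxcr2 minus the mean of these 15 markers was -0.09, 0.24 and -0.15 in saline and -0.20, -0.29 and -0.68 in LPS. Cxcr2 thus lay near the marker mean in saline and on average at -0.39 from it in LPS, without overlap (exact permutation p = 0.1). Mpo, a defining gene of neutrophil precursors, was listed at 0 in LPS 2 and reached at most 0.43. The part of neutrophil number in the Cxcr2 difference was not tested.

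**Figure D2:**
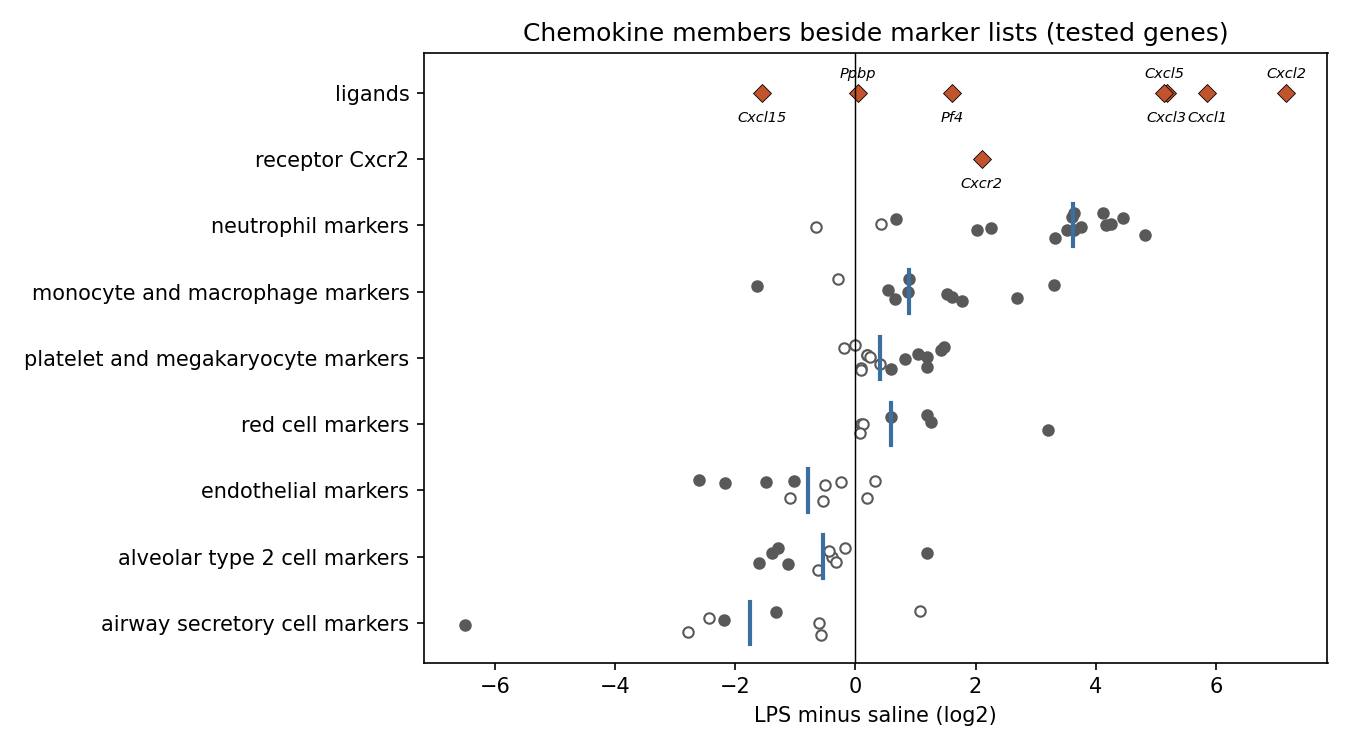
Difference (LPS minus saline, log2) of the member genes (diamonds) and of tested genes of the marker lists (circles, filled where the limma test was passed, open where not), 1 list per row, with a blue tick at the list median. Cxcr2 at 2.10 lies left of the neutrophil median of 3.62, and Pf4 at 1.61 lies right of the platelet median of 0.40.

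The order of the members was compared next. In every saline library Cxcl15 came first, followed by Pf4 and then Ppbp. In saline, Cxcl15 lay above Pf4 by 3.50, Ppbp above Cxcr2 by 1.95 and Cxcl1 above Cxcr1 by 1.42 with no overlap of ranges, whereas the ranges of neighbours among Cxcr2, Cxcl3, Cxcl2, Cxcl5 and Cxcl1 overlapped. Despite overlapping ranges, Pf4 exceeded Ppbp in 3 of 3 saline libraries by 0.08 to 1.13, and Cxcl3 exceeded Cxcl2 in 3 of 3 by 0.32 to 0.58. In every LPS library Cxcl2 came first and Cxcr1 last. Cxcl2 exceeded Cxcl1, the next by mean, in 3 of 3 LPS libraries by 1.08 to 1.94, although the ranges overlapped. Cxcl1, Cxcl3, Cxcl15, Pf4 and Cxcl5 followed with overlapping ranges and no fixed order between neighbours. Cxcl5 then lay above Cxcr2 by 2.05 and Ppbp above Cxcr1 by 4.73, both without overlap. Cxcl15 was second in LPS 2 and LPS 3 and sixth in LPS 1.

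As shares of the summed level of the 7 ligand genes before the log, Cxcl15 made up 82.9%, 83.8% and 87.5% in saline and 6.08%, 16.6% and 16.2% in LPS. Cxcl2 made up 0.132%, 1.53% and 0.407% in saline and 46.1%, 36.8% and 30.4% in LPS. A common scaling factor cannot move these shares. Cxcl1 went from 0.501% ± 0.218 to 15.1% ± 5.91, Cxcl3 from 1.07% ± 1.12 to 13.2% ± 2.13 and Cxcl5 from 0.537% ± 0.272 to 9.28% ± 2.59 (SD, n = 3; exact permutation p = 0.1 each). Ppbp went from 5.06% ± 2.47 to 2.01% ± 0.384 (SD, n = 3; exact permutation p = 0.1), although its level did not pass the test. The share of Pf4, 7.41% ± 1.12 in saline and 9.66% ± 3.16 in LPS, overlapped between groups (SD, n = 3; exact permutation p = 0.3). For the other 6 ligands the groups did not overlap, with an adjusted p of 0.117 over the 7 exact permutation tests, and 3 against 3 libraries cannot pass 0.05.

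The summed level itself was 647, 1032 and 748 in saline and 2387, 1913 and 1600.2 in LPS, a 2.43-fold ratio of means without overlap. Cxcl1, Cxcl2, Cxcl3 and Cxcl5 together went from 5.38, 52.5 and 18.5 to 2043, 1378 and 1095, a 59.1-fold ratio of means. They held 2.80% of the ligand sum in saline and 75.4% in LPS.

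**Figure D3:**
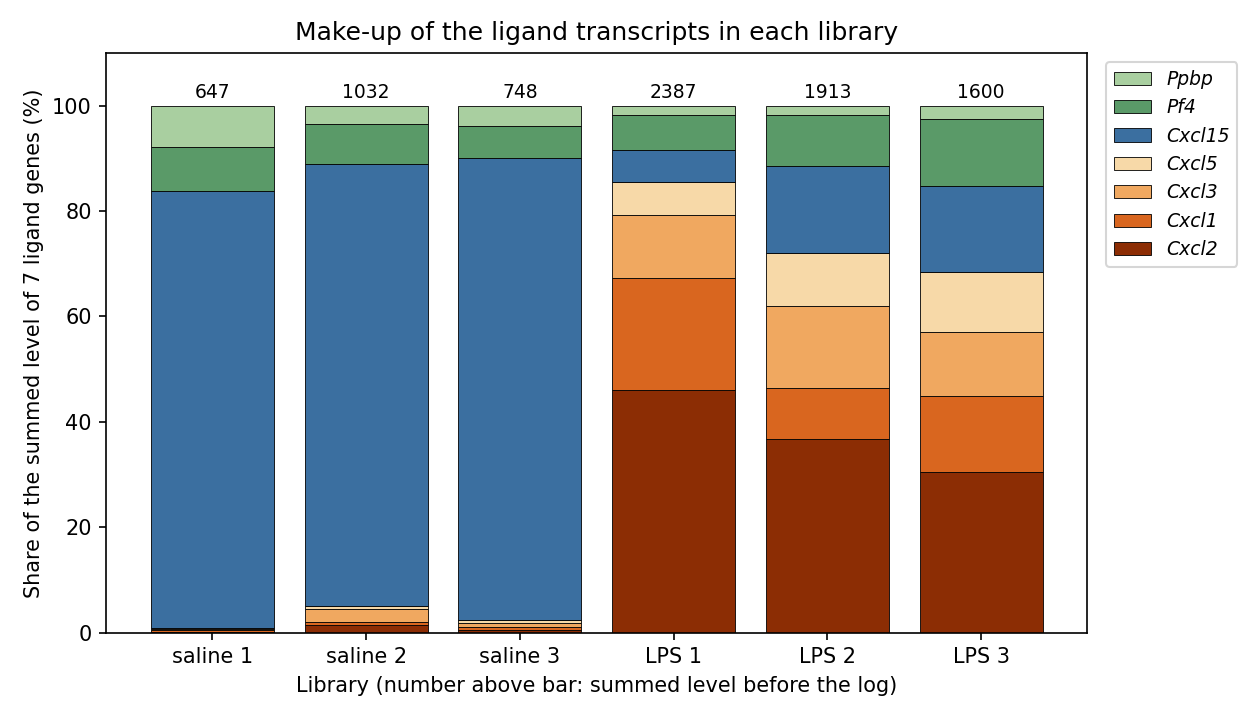
Stacked bars of the percentage of the summed level of 7 ligand genes (values before the log) held by each gene, 1 bar per library. Cxcl15 fills 82.9% to 87.5% of the saline bars and 6.08% to 16.6% of the LPS bars, where Cxcl2 holds 30.4% to 46.1%.

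Ligands were then compared with each other within each library. Of the 21 pairs of ligands, the within-library difference separated the groups without overlap in 17, as it did in 62.7% of all pairs of tested genes with a value in every library. All 15 pairs with Cxcl15, Ppbp or Pf4 separated the groups, but only 2 of the 6 pairs among Cxcl1, Cxcl2, Cxcl3 and Cxcl5. The smallest p of the exact permutation test, 0.1, became 0.124 over the 21 pairs, and none can pass 0.05 in this design. Cxcl2 minus Cxcl3 was -0.32, -0.58 and -0.57 in saline and 1.96, 1.23 and 1.31 in LPS. Cxcl3 was thus the higher of this pair in every saline library and Cxcl2 in every LPS library, a shift of 1.99 (SE 0.25) that held although both genes varied by over 3 on the log2 scale among the saline libraries. Cxcl2 also moved against Cxcl5 by 2.03 (SE 0.66), without overlap. The 4 pairs whose groups overlapped were Cxcl1 with Cxcl2 (-1.32, SE 0.73, exact permutation p = 0.3), with Cxcl3 (0.67, SE 0.85, p = 0.6) and with Cxcl5 (p = 0.3), and Cxcl3 with Cxcl5 (0.04, SE 0.60, exact permutation p = 0.9). The span of these SEs leaves room for unequal responses in those pairs. Cxcl15 minus Pf4 was 3.28, 3.43 and 3.79 in saline and -0.10, 0.79 and 0.33 in LPS, a shift of -3.16 (SE 0.30).

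All 7 ligand genes lie in 1 cluster on chromosome 5 (mm10, GENCODE), all on the + strand. In order they are Cxcl5 (chr5:90759360-90761624), Ppbp (chr5:90768518-90770063), Pf4 (chr5:90772435-90773383), Cxcl3 (chr5:90786103-90789600), Cxcl15 (chr5:90794534-90803067), Cxcl1 (chr5:90891241-90893115) and Cxcl2 (chr5:90903871-90905938). Along this order the differences were 5.14, 0.05, 1.61, 5.18, -1.55, 5.86 and 7.17, and Cxcl15, the gene that fell, stands between Cxcl3 and Cxcl1. Of 12 neighbours, 8 were tested, 4 rose and 4 did not pass, with a median of 0.57. Areg (1.64) and Ereg (0.98), epidermal growth factor receptor ligands, and Cox18 (0.84) and Afp (0.80) rose, less than Cxcl1, Cxcl2, Cxcl3 and Cxcl5. Mthfd2l (0.07) and Rassf6 (0.34) did not pass. Under equal sums 3 neighbours rose and 2 fell. Cxcr2 (chr1:74153989-74161246, + strand) and Cxcr1 (chr1:74191785-74194631, - strand) lie side by side on chromosome 1, and there only Cxcr2 of the pair was tested.

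**Figure D4:**
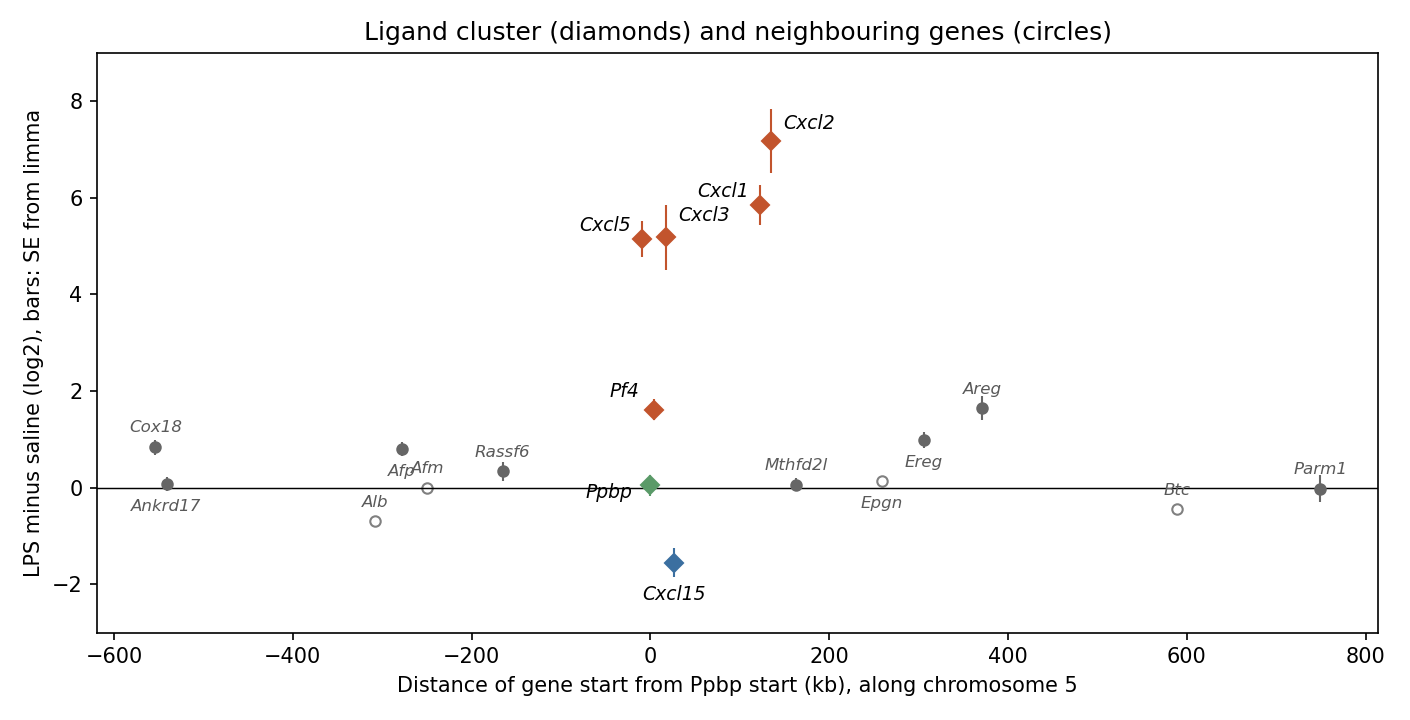
Difference (LPS minus saline, log2, bars: SE from limma) of the 7 ligand genes (diamonds, red above 0.5, blue below -0.5, green between) and 12 neighbours (grey circles, open where not tested) against the distance of the gene start from the Ppbp start in kb. Ppbp at 0.05 and Cxcl15 at -1.55 stand among the raised genes Cxcl5, Cxcl3, Cxcl1 and Cxcl2 at 5.14 to 7.17.

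Genes upstream of these ligands rose in the same libraries. Of 18 tested cytokines, receptors and NF-kB components known to drive CXC ligand transcription, 14 rose, 0 fell and 4 did not pass, with a median of 1.04. The cytokines Il1b (4.56), Il1a (4.16) and Tnf (3.56, no LPS 3 value) and the LPS co-receptor Cd14 (3.59) led. Tlr4, the LPS receptor, did not pass (0.44, limma adjusted p = 0.189, no LPS 3 value). Under equal sums 8 rose and 1 fell. Il17a and Il17f, the cytokines that raise these ligands in epithelium, missed the filter.

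Among 11 genes whose proteins act on the stability of CXC chemokine mRNAs, 7 rose, 1 fell and 3 did not pass, with a median of 0.68. The largest rises were in Zfp36 (2.19) and Zc3h12a (2.05), which encode tristetraprolin and regnase, factors that speed decay and had no LPS 3 value, and in the stabilising factor Arid5a (1.61). Traf5, also without an LPS 3 value, fell by 0.85, and only 3 of the 11 genes had a value in every library. Under equal sums 3 rose and 2 fell.

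Downstream of the receptor, 13 of 25 signalling genes rose, 3 fell and 9 did not pass, with a median of 0.44. Under equal sums 5 of the 25 rose and 12 fell, where 798 of all 13116 tested genes rose and 8343 fell. Rgs1 (1.98), a brake on G protein signalling, the Src-family kinase Fgr (1.83) and the actin regulator Vasp (1.77, no LPS 3 value) rose. Arrb1, which encodes an arrestin that desensitises such receptors, fell from 5.77, 5.13 and 5.51 to 3.55, 3.87 and 3.97, a difference of -1.67. Arrb2, another arrestin gene of the list, rose from 3.97, 4.50 and 4.34 to 5.81, 5.64 and 5.36. Its difference was 1.33 (limma adjusted p = 0.000613).

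Of 14 tested genes for chemokine capture, scavenging and cleavage, 5 rose, 4 fell and 5 did not pass, with a median of 0.35. Over all tested genes 25.7% rose and 24.3% fell. Under equal sums 5 of the 14 rose and 7 fell. Ackr1, the endothelial and red cell chemokine-binding receptor, was at 0.40, 0.94 and 0.94 in saline and at 5.41, 4.52 and 5.06 in LPS, a difference of 4.24 with no overlap. Ackr3 (2.62) and the neutrophil collagenase Mmp8 (3.33) rose, and the chemokine-trimming protease Dpp4 fell by 2.07. Of 10 endothelial markers beside it, 0 rose and 4 fell, among them Kdr (-2.17) and Tek (-1.49, no LPS 3 value), and 10 fell under equal sums. Their summed level was 780 to 850 in saline and 683 to 756 in LPS.

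Other receptors and ligands of leukocyte traffic moved in the direction of Cxcr2 and its ligands. Of 8 tested neutrophil chemoattractant receptors, 6 rose and 0 fell (5 and 1 under equal sums), with a median of 1.96. Fpr2 (3.99), Fpr1 (2.95), Ccr1 (2.75) and C5ar1 (2.51) rose, and Ptafr (1.08, limma adjusted p = 0.0658) and Cxcr4 (0.34, limma adjusted p = 0.202) did not pass. Of 7 genes of neutrophil production and release, 6 rose, and under equal sums 4 rose and 1 fell. The colony-stimulating factors Csf3 (5.95) and Csf2 (4.70) led, and Cxcl12, the marrow retention signal, did not pass. Of 7 tested CXC ligands of other receptors, 6 rose, and under equal sums 5 rose and 1 fell. Cxcl10 (3.99), Cxcl13 (2.80), Cxcl16 (2.27) and Cxcl9 (2.24) were highest. The median of the 7 was 2.24, below the 5.14 to 7.17 of Cxcl1, Cxcl2, Cxcl3 and Cxcl5.

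Genes with the most similar profile were sought among 10294 candidates by the root mean square difference of values centred on each gene's mean over the 6 libraries, a description with no test. Cxcl1 lay nearest to the cytokine genes Il6 (0.259) and Csf3 (0.366), and Cxcl3 to the CC chemokines Ccl3 (0.245) and Ccl2 (0.345). Cxcl5 lay nearest to Ccl12 (0.411) and the metallothionein Mt1 (0.447), and Cxcl2 to Mt2 (0.616) and the acute-phase gene Saa3 (0.711). None of these nearest genes was another member. Cxcl15 lay nearest to Rasgrp3 (0.118) and Ccl21a (0.157), Pf4 to Ly6c1 (0.0749) and 1810022K09Rik (0.101), Ppbp to Perp (0.0627) and Hist1h4h (0.0876), and Cxcr2 to AI607873 (0.173) and Pilrb1 (0.188).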

How the data were processed

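RNA was extracted with Trizol and sequenced after a directional library preparation, per the labels' protocols, and aligned with TopHat to mm10, per the submitters' processing notes. The counter, the annotation and the scaling were not given in the sources used here, and the log2 unit of the deposited values was read from the values themselves, as log2(expression value + 1). Depth is unknown, so no counting interval is given. Genes with at least 1 before the log in at least 3 libraries were tested (10067 of 23183 removed). The test was limma 3.58.1 (R 4.3.3) with a variance trend on the deposited values. It was also run on simulated data with few changed genes, all of them raised, unlike these data. That run cannot vouch for the calls made here. Missing LPS 3 values were left out. Shares and pairs used two-sided exact permutation tests over the libraries.

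The members and gene lists were chosen with earlier results of these data known. All 9 members are named, with up to 4 genes of each list past the threshold by size of difference (or, with none past it, the 2 highest by mean) and the 2 genes nearest to each member. Except for Arrb2 and S100a9, a list gene named beyond these did not pass or was not tested. All such genes, Arrb2 and S100a9 included, were chosen after their values were seen. Summed marker levels cover the list genes with a value in every library. Length scaling was checked on 834 to 1180 genes with 1 transcript per library: the fullest bin, 0.05 wide in log2, held 27 to 46 genes for value times length and 16 to 21 for the value alone. Coordinates and 3′ UTRs came from GENCODE (GRCm38, equal to mm10) and promoters from RefSeq, which matched 8 of 9 members. Alternatives covered scaling, filters, pseudocount, variance trend, threshold, replicate block and each library left out, and saline 1 and 3 against LPS 1 and 2 was added after the data were seen.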

Additional observations from a re-analysis of the deposited data

How the results depend on the processing

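Cxcl1, Cxcl2, Cxcl3, Cxcl15 and Pf4 kept direction and call in all 16 alternatives, and Cxcl5 and Cxcr2 in the 15 that tested them, since a mean of at least 5 before testing left both out. The differences ranged from 6.46 to 8.33 for Cxcl2, -2.35 to -1.22 for Cxcl15, 0.82 to 1.83 for Pf4 and 1.36 to 2.63 for Cxcr2. The number of genes called, 6565, became 1614 (1370 higher, 244 lower) with that mean and 4037 at a threshold of 0.01. Scaling every library to equal sums gave 798 higher and 8343 lower genes and moved the median of all genes by -0.70, so that 2 members were lower. The second was Ppbp at -0.74 (limma adjusted p = 0.0126), which lay -0.06 from the median of all genes there. Ppbp was at -0.31 under quantile normalization, at -0.000741 for saline 1 and 3 against LPS 1 and 2, and between -0.14 and 0.27 when each library was left out. Cxcl1 minus Cxcl3 was at -0.10 for saline 1 and 3 against LPS 1 and 2 and between -0.0403 and 1.09 with each library left out, where Cxcl3 minus Cxcl5 was between -0.25 and 0.59. The cause was not tested. Same-numbered libraries did not deviate together (correlations of -0.252 to -0.0776, and 0 of 6 libraries correlated best with their own number). With the replicate block 5417 genes were called, and no call of a member changed. Without counts, depth limits no value that can be stated, and Cxcr1 was too low to compare.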

Other observations

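Around the receptor genes on chromosome 1, 14 of 18 neighbours were tested, and 5 rose, 3 fell and 6 did not pass, with a median of 0.03. Over all tested genes 25.7% rose and 24.3% fell. Slc11a1, a metal transporter of phagocytes, rose by 2.29 and Tmbim1 by 0.64, while Cyp27a1 (-1.37) and Ttll4 (-0.75) fell. Tmbim1 and Ttll4 had no LPS 3 value. The count of risers was 1 without LPS 1, with the replicate block and under equal sums, where 7 fell. It was 2 without saline 1, saline 3 or LPS 2.

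The run GGGAATTTCC also stood in promoters of 26 other genes, of which 11 were tested. Of these, 3 rose and 1 fell (27.3% higher, against 25.7% of all tested genes), with a median of -0.02. The wider NF-kB consensus stood in promoters of 2578 other genes, of which 1232 were tested, and 319 rose and 316 fell (25.9% higher). Outside the members, then, genes with these letters in their promoters held about the background share of risers. For the exact run this share rests on only 11 genes. The run was chosen after the promoters of Cxcl1, Cxcl2 and Cxcl3 had been seen, and its part in their differences was not tested.

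Of 7 mast cell markers, 6 missed the filter and Kit fell by 0.70, a call that was lost without saline 1, saline 3, LPS 2 or LPS 3.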
